A study of Mus musculus with 45 samples.

Results

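Cytosolic ribosomal proteins are the protein part of the ribosomes that translate nuclear-encoded messages. Those whose symbols start with Rpl belong to the large subunit and those starting with Rps to the small subunit. Cells make them in matched amounts, and many of their messages start with a run of pyrimidines, the 5′ terminal oligopyrimidine tract, through which mTORC1 signalling controls their translation. The members described here were the genes whose symbols match the ribosomal protein pattern (Rpl or Rps, a number and at most the suffix a, x, l or l1, plus Rpsa, Rplp0, Rplp1 and Rplp2) and whose mean over all libraries was at least 5 CPM (reads on the gene per 1000000 reads assigned to genes). Of 24421 symbols, 83 matched the pattern and 58 reached the minimum, 34 of the large and 24 of the small subunit. The minimum is a cut in measured level: Rps27l at 5.40, Rps6 at 5.70 and Rpl23a at 5.75 CPM lay just inside it, and Rpl12 at 4.92, Rps12 at 4.81 and Rpl9 at 4.38 CPM just outside.

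The libraries were made from nucleus accumbens punches of 45 female mice of HDID-1, a line bred from a genetically mixed stock for high blood alcohol after a short drinking session. All 4 groups carried the same 2 injected viruses (0.5 uL of each, on both sides): rAAV2/5-CMV-Cre-GFP, in which the CMV promoter drives Cre, and rAAV2-hSyn-DIO-hM3Dq-mCherry, in which the neuronal synapsin promoter drives hM3Dq, an engineered receptor activated by clozapine N-oxide (CNO), only in cells with Cre. Mice drank alcohol or water in daily sessions for 6 weeks; the CNO groups received 1 mg/kg CNO in weeks 2 to 5 and vehicle in weeks 1 and 6, and the vehicle groups received vehicle throughout. Of the alcohol drinkers 12 received CNO and 11 vehicle, and of the water drinkers 11 and 11, with 1 library per mouse, so p-values measure the spread between mice. Their age is not given in the sources used here. The libraries held 26.8 to 39.5 M reads assigned to genes. All 16 markers of medium spiny neurons, the main neurons of this region, were tested, and their summed level was 7335 to 11309 CPM. Replicates 5 and 10 of the alcohol vehicle group, and replicate 9 of the water vehicle group, stood apart in their immune genes in an earlier analysis of these data. Member counts and medians that move by over 1.5 times without them are given both ways.

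The first feature that the member rule did not use was the sequence at the transcription start. RefSeq start-site windows (GRCm38.p6) were given for 43 of the 58 members; Rps4l, Rps14, Rps20, Rpl8, Rpl7, Rpl23a, Rpl3, Rplp1, Rpl36 and Rpl32 were among those with none. A C followed by at least 4 bases that are C or T, read on the gene's strand and beginning within 5 bases of an annotated start, was present in 23 of 43 members, 53.5% (95% exact binomial interval 37.7 to 68.8). Over all genes of the table it was present in 5718 of 27025, 21.2%. With the run required to begin exactly at the annotated start, 10 of 43 members (23.3%) and 3.01% of all genes had it. The windows below are shown because they include the most typical and the most deviating members of the results that follow; each gives 15 bases before the start and 15 from it onward, with the pyrimidine run in capitals where there was one. They lie at chr7:3704026-3704055 (plus strand) for Rps9, chr4:86857353-86857382 (minus) for Rps6, chr2:39005117-39005146 (minus) for Rpl35, chr17:24720048-24720077 (plus) for Rps2, chr9:120127751-120127780 (plus) for Rpsa, chr5:115559452-115559481 (plus) for Rplp0 and chr17:28328456-28328485 (plus) for Rpl10a.
Rps9: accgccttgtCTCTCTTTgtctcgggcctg
Rps6: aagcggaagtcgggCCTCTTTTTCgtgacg
Rpl35: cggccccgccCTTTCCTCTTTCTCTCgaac
Rps2: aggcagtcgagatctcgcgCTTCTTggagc
Rpsa: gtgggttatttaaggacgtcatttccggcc
Rplp0: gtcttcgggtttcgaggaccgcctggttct
Rpl10a: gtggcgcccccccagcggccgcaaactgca
Rps9, Rps6, Rpl35 and Rps2 hold a run that begins within 5 bases of the start, and Rpsa, Rplp0 and the window shown for Rpl10a do not. The row of C in the Rpl10a window begins farther before the start. Capitals begin at the first such C within those 5 bases, so pyrimidines just before it, as in Rpl35, stay in lower case. A run is a description of these letters and not evidence of a working tract.

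The members together took 0.436% ± 0.042 (SD, n = 45) of the reads assigned to genes, between 0.368% and 0.532% per library, or 98844 to 190980 reads. The deposited counts hold only reads that aligned to 1 place, and ribosomal protein genes have many processed copies in the mouse genome. To see how much of each message another annotated gene could match, every 50-base window of 1 annotated transcript per gene was looked up in all other GENCODE transcripts (vM21). A median of 41.7% of the windows of a member occurred in another gene, from 0% to 95.1%, the latter in Rpl35, and 57 of 58 members shared at least 1 window. For the 25 candidates under the minimum the median was 61.0%, up to 98.6% in Rps27. With 100-base windows the medians were 29.2% and 49.3%. Across the 83 genes, level per kilobase and shared share had a Spearman rho of -0.27 with 50-base and -0.35 with 100-base windows, and of -0.43 and -0.52 over the 79 genes left without Rpl3l, Rpl10l, Rpl39l and Rps4l. These points are genes counted in the same libraries and are a description. The read length is not given in the sources used here, so the share of reads lost is unknown, and a level below is that of the uniquely aligned reads only.

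**Figure D1:**
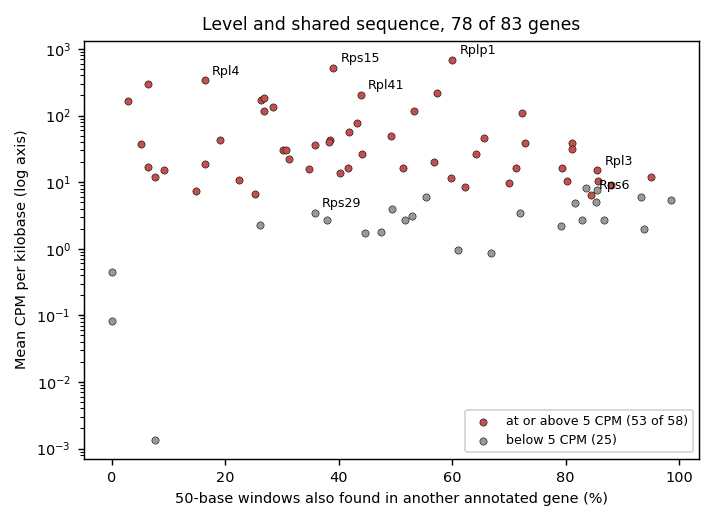
Each point is 1 of 78 of the 83 ribosomal protein genes: the percent of its 50-base windows also found in another annotated gene (x axis) against mean CPM per kilobase of transcript over 45 libraries (y axis, log scale), in red for 53 of the 58 members and grey for the 25 below 5 CPM. Rplp1, Rps15 and Rpl4 were the highest; Rpl3 (85.6% shared) and Rps6 (84.6%) lay low among the members.

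Per kilobase of transcript, the highest members were Rplp1 at 689, Rps15 at 519 and Rpl4 at 340 CPM per kb. Rplp1 is an acidic protein of the ribosomal stalk, which recruits translation factors; its stalk partners Rplp0 and Rplp2 were at 57.3 and 30.3 CPM per kb. Rps15 is a small-subunit protein near the decoding site and Rpl4 a large-subunit protein of the exit tunnel. The lowest were Rps6, the S6 kinase substrate used as a readout of mTORC1 activity, at 6.50, Rpl18 at 6.66 and Rps4l at 7.40 CPM per kb. Rpl18 ranked 57 of 58 by the long transcript chosen for it and 42 by coding length; the 2 orders had a Spearman rho of 0.89 over the members with a coding length. GENCODE lists Rps4l as a transcribed processed pseudogene, named after the X-linked Rps4x, which was at 110 CPM per kb. Rpl22l1, a paralog that Rpl22 is known to repress, was at 45.6 beside 37.5 CPM per kb for Rpl22, and Rpl7l1 was at 15.0 beside 118 CPM per kb for Rpl7. By coding length the order of Rpl22l1 and Rpl22 reversed, at 68.8 and 200 CPM per kb of coding sequence. That of Rpl7l1 and Rpl7 stayed, at 52.9 and 169. Rps27l, a paralog induced by p53, was at 10.8 CPM per kb. Its namesake Rps27 was at 5.47 CPM per kb and under the minimum at 1.89 CPM. Of the 50-base windows, 98.6% were shared with another gene in Rps27 and 22.4% in Rps27l. Beside Rpl12, Rps12 and Rpl9, the minimum left out 22 candidates, from Rpl21 at 4.25 to Rpl10l at 0.00139 CPM. They were Rpl21, Rpl10, Rpl5, Rpl36a, Rpl24, Rps27a, Rps28, Rps23, Rpl27, Rpl17, Rpl28, Rpl30, Rps27, Rpl34, Rps13, Rps18, Rps29, Rpl29, Rpl3l, Rpl26, Rpl39l and Rpl10l.

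Alcohol and water drinkers were compared under each treatment and averaged over treatments, with edgeR's quasi-likelihood test over 15852 genes and Benjamini-Hochberg adjustment; all 58 members passed its filter on low counts. Members were mostly slightly lower in alcohol drinkers, and none passed an adjusted p of 0.05. With alcohol averaged over treatments 52 of 58 were lower, with a median log2 fold change of -0.06, while 48.1% of all genes were lower, with a median of 0.00. The large-subunit median was -0.06 (32 of 34 lower) and the small-subunit median -0.06 (20 of 24 lower). Under vehicle 51 members were lower (median -0.05) and under CNO 51 (median -0.07), in comparisons that share no library. Lower in both were 47 members (81.0%) and 27.8% of all genes tested. With 51 of 58 lower in each, most members had to be lower in both. Members also moved together from mouse to mouse, as described below, so they are not 58 separate observations. The median standard error of a member was 0.07 in each of these single comparisons, about the size of the median difference. With the share of no-feature reads as a covariate, the median under CNO was -0.00, with 35 of 58 members lower. No-feature reads are uniquely aligned reads that HTSeq, the counting tool, assigned to no feature. They can include reads in introns if only exons were counted. By edgeR no gene at all passed in these 3 comparisons (0% of genes tested). By unadjusted p under 0.05 the members that were lower numbered 0 under vehicle (2.42% of all genes), 2 under CNO (3.66% of all genes) and 4 averaged (5.03% of all genes). At that p 0 members were higher in each, beside 5.94%, 2.85% and 6.96% of all genes in the same order. DESeq2 called 3, 0 and 6 genes of all and limma voom 0, 1 and 6, in the same order, and neither called a member.

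These unadjusted counts depended on the libraries and covariates in the fit, while the adjusted calls stayed at 0 members. Replicates 5 and 10 of the alcohol vehicle group had 0.532% and 0.483% of their assigned reads on members, the highest shares of that group (mean 0.432%). Leaving them out therefore lowers the mean of that group. Without these 2 libraries, 27 of 58 members were lower at an unadjusted p under 0.05 for alcohol averaged over treatments, beside 6.52% of all genes. Without replicate 9 of the water vehicle group as well, the count was 30 of 58, beside 6.88% of all genes, and the smallest adjusted p of a member was 0.170 by edgeR. With limma voom, which weights libraries by their quality, it was 20 of 58, beside 7.63% of all genes. With the no-feature share as a covariate it was 2 of 58, beside 8.40% of all genes. With a score of cortical markers as a covariate it was 3 of 58, beside 4.71% of all genes. With each single library left out the count ran from 2 to 16, the highest without replicate 5 of the alcohol vehicle group. The share of all genes at that p in these fits is not given here, so this range has no background beside it. Under vehicle, the median went from -0.05 to -0.10 without the 2 alcohol vehicle libraries and to -0.11 without all 3, with 7 and 6 members lower at that p, beside 3.47% and 3.16% of all genes. Under CNO the count was 8 with limma voom (6.85% of all genes) and 8 without replicate 3 of the alcohol CNO group (6.22% of all genes).

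Rplp1 had the smallest p of the members. It ranged from 269 CPM through a median of 362 to 455 CPM in water vehicle and from 266 through 373 to 469 CPM in water CNO mice. In alcohol vehicle mice it ranged from 235 through 310 to 381 CPM and in alcohol CNO mice from 225 through 320 to 405 CPM. The alcohol groups had the lower medians, and all 4 groups overlapped. Its log2 fold change averaged over treatments was -0.20 ± 0.07 (SE; unadjusted p = 0.00759, adjusted p = 0.286 by edgeR), and under CNO -0.25 ± 0.10 (adjusted p = 0.738 by edgeR).

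Rpl37a, a small zinc-finger protein of the large subunit, had the smallest p for alcohol under vehicle. It ranged from 22.5 through 24.5 to 28.8 CPM in water vehicle and from 19.5 through 23.5 to 29.4 CPM in alcohol vehicle mice, which overlapped. The log2 fold change was -0.12 ± 0.06 under vehicle (adjusted p = 0.613 by edgeR) and -0.11 ± 0.04 averaged over treatments (unadjusted p = 0.0159, adjusted p = 0.325). Rpl19, a large-subunit protein, was at -0.07 ± 0.03 in the average (unadjusted p = 0.0366, adjusted p = 0.382 by edgeR). Rps14, whose loss of 1 copy underlies the anaemia of the human 5q deletion, was lowest in alcohol CNO mice, at 77.7 through 94.1 to 131 CPM, beside 90.4 through 107 to 145 CPM in water CNO mice. That difference was -0.20 ± 0.09 (unadjusted p = 0.0227, adjusted p = 0.738 by edgeR). Of members that were higher in alcohol drinkers under vehicle, Rps26 had the smallest p, at 0.09 ± 0.09 (adjusted p = 0.806 by edgeR).

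**Figure D2:**
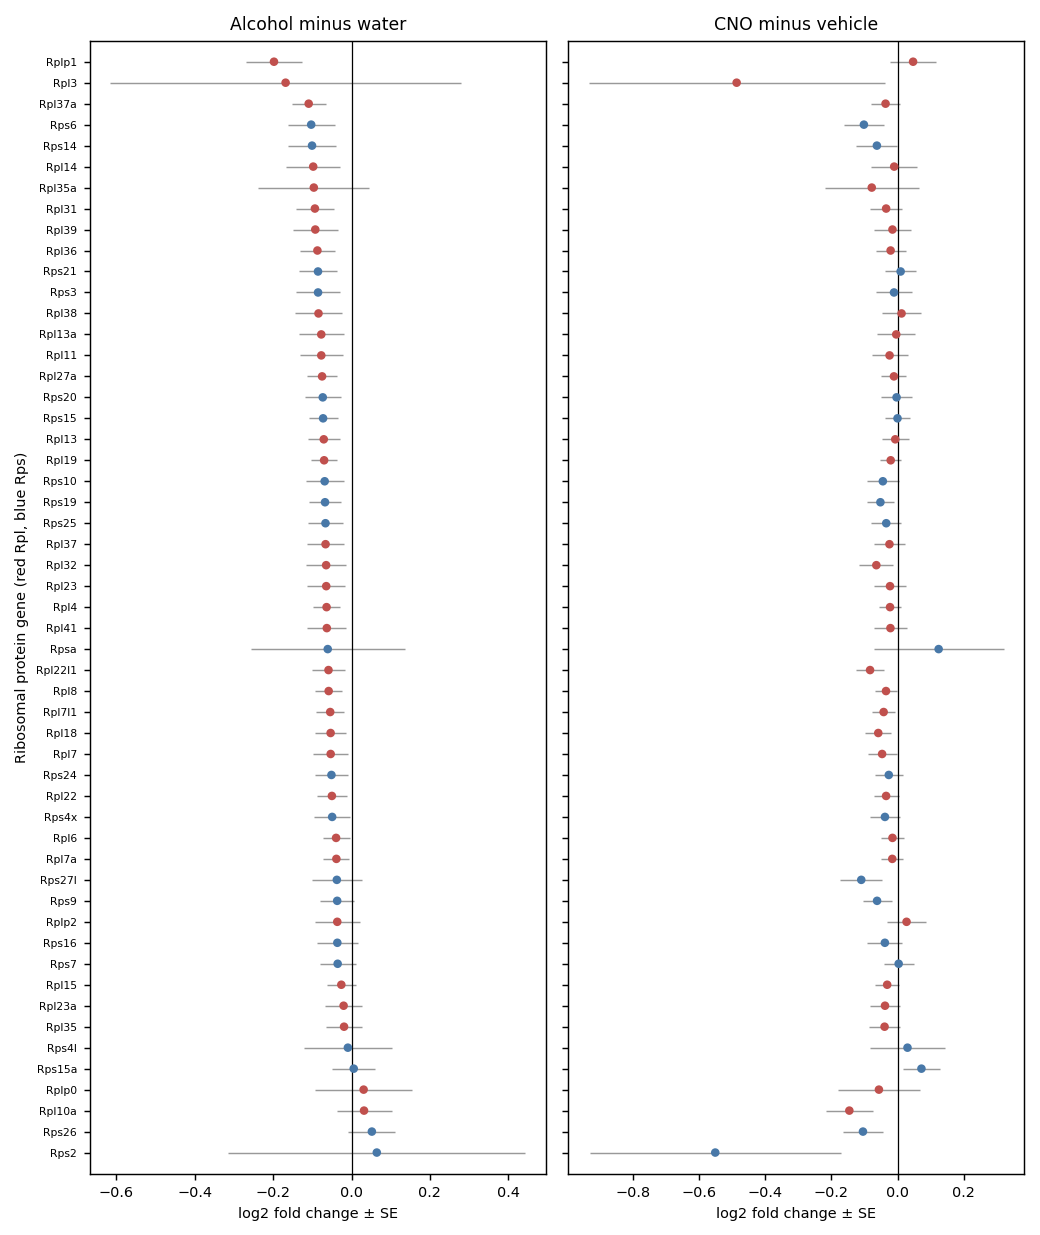
Log2 fold changes (x axis, points, bars ± SE) of 53 of the 58 members, in the order of the alcohol difference, for alcohol minus water averaged over treatments (left) and CNO minus vehicle averaged over fluids (right) from the fit over 45 libraries; large-subunit genes are red and small-subunit genes blue. Most points lie just below 0, where the medians over all 58 were -0.06 and -0.03, and of the members shown Rpl3, Rps2 and Rpsa have the widest bars.

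CNO and vehicle were compared in each fluid. No member passed an adjusted p of 0.05 by edgeR in alcohol drinkers (0.871% of all genes passed), in water drinkers (0.0694%) or averaged over fluids (0.889%). DESeq2 called 179, 24 and 204 genes of all and limma voom 0, 0 and 47, in the same order, and neither called a member. Of the members 49 were lower in alcohol drinkers (median -0.04), 45 in water drinkers (median -0.02) and 49 in the average (median -0.03), while 48.3%, 50.4% and 49.8% of all genes were lower. The direction in alcohol drinkers rested on replicates 5 and 10 of the vehicle group, without which the median was 0.01, 23 of 58 members were lower and 0 genes of all passed. Without replicate 5 alone the median was -0.01, and again 0 genes passed. The average over fluids depended on the same libraries: without both, its median was -0.01 and 38 members were lower, and without replicate 9 of the water vehicle group as well, -0.01 and 41. In water drinkers the median was -0.03 without all 3 and -0.06 with S-number block, a grouping described below, as a covariate. By unadjusted p under 0.05, 0 members were lower in alcohol drinkers (5.86% of all genes), 1 in water drinkers (2.54%) and 2 averaged over fluids (5.95%). At that p 0 members were higher in each, beside 1.46%, 3.00% and 3.35% of all genes in the same order. Without the 3 libraries the counts of lower members in water drinkers and in the average were 0 and 1 (2.62% and 2.94% of all genes). With block as a covariate they were 2 and 10 (3.88% and 6.98% of all genes).

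The member with the smallest p for CNO was Rpl10a, the protein of the L1 stalk that is tagged in ribosome affinity purification. In water vehicle mice it ranged from 4.41 through a median of 7.27 to 8.50 CPM, and in water CNO mice from 5.23 through 5.94 to 7.71 CPM, inside the range of the former. The log2 fold change was -0.22 ± 0.10 in water drinkers (unadjusted p = 0.0317, adjusted p = 0.864 by edgeR) and -0.15 ± 0.07 averaged over fluids (adjusted p = 0.511 by edgeR). Rpl22l1 was at -0.08 ± 0.04 in the average (unadjusted p = 0.0499, adjusted p = 0.537 by edgeR) and Rpl22 at -0.03 ± 0.04. In alcohol drinkers Rps14 had the smallest p, at -0.17 ± 0.09. Rps15a had the smallest p of members that were higher with CNO, at 0.09 ± 0.08 in water drinkers. The interaction, whether the CNO difference differed between fluids, passed for no gene (0% of all genes). It had 0 members at an unadjusted p under 0.05 (1.79% of all genes were lower at that level and 1.34% higher). Its largest members by p were Rps14 at -0.21 ± 0.12 and Rpl10a at 0.15 ± 0.14, both with an adjusted p of 0.983 by edgeR.

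Other genes of the same machinery were counted from lists drawn up with earlier results known. With alcohol averaged over treatments, 19 of 20 translation factors and other genes with known pyrimidine tracts were lower (median -0.04), 20 of 31 ribosome biogenesis genes (median -0.01) and 13 of 23 genes of the mTORC1 pathway (median -0.00). Of 77 mitochondrial ribosomal protein genes 69 were lower (median -0.05), and of 85 tested respiratory chain genes 78 (median -0.06). With CNO averaged over fluids, 19 of 20 of the translation list (median -0.03), 23 of 31 biogenesis genes (median -0.01) and 41 of 85 respiratory chain genes were lower. None of these genes passed in any of the 7 comparisons. Of ribosomal proteins that the symbol pattern misses, Fau, a fusion of a ubiquitin-like protein and S30, was at -0.10 ± 0.04 for alcohol averaged (adjusted p = 0.312 by edgeR). Rpl36al was at -0.04 ± 0.05 and Gnb2l1, the Rack1 scaffold of the small subunit, at -0.05 ± 0.04.

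The summed share was lower on average in the alcohol groups, by less than the spread within groups. It ran from 0.410% through a median of 0.439% to 0.525% in water vehicle, from 0.389% through 0.450% to 0.488% in water CNO, from 0.368% through 0.413% to 0.532% in alcohol vehicle and from 0.368% through 0.421% to 0.496% in alcohol CNO libraries. All 4 ranges overlapped widely. The group means were 0.452% ± 0.039, 0.445% ± 0.039, 0.432% ± 0.046 and 0.418% ± 0.042 (SD), so alcohol over water came to a ratio of 0.947 and CNO over vehicle to 0.978, against an SD within groups of 0.0948 of the mean. Libraries in the order of the S numbers of the sample titles were split into 8 consecutive blocks, a new one wherever the tube number fell. This grouping was inferred, and the labels do not call it a batch. Each block held mice of all 4 groups. Block means ran from 0.402% to 0.497%, a wider span than that of the group means, and alcohol drinkers had the lower mean in 6 of 8 blocks and CNO mice in 7 of 8. In a fit with block as a term 0 members were called. Alcohol drinkers had tube numbers 1 to 24 and water drinkers 25 to 46, so effects of tube order and of fluid cannot be told apart.

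**Figure D3:**
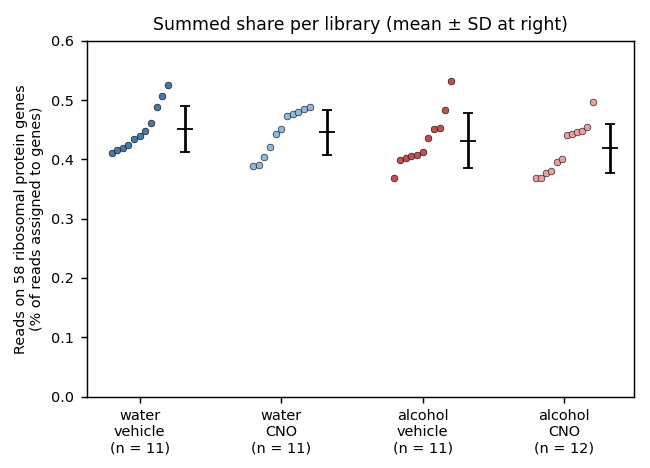
Reads on the 58 members as a percent of all reads assigned to genes (y axis, from 0), 1 point per library in 4 groups, with the mean ± SD at the right of each group. The group means lie between 0.418% and 0.452%, and the ranges overlap.

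The summed share moved with other measures of the same libraries. Over 45 libraries its Pearson r was 0.85 (Spearman rho 0.83) with the reads aligned to several places, counted per 100 uniquely aligned reads, and 0.83 without the 2 libraries farthest from the median of that measure. Within groups r was 0.79 to 0.90, and 0.81 after block means were taken out. With the share of no-feature reads r was -0.67 (rho -0.66, -0.72 without 2 libraries), between -0.89 and -0.42 within groups and -0.57 within blocks. With the number of assigned reads r was 0.13 (rho 0.14). With the summed level of the translation factor list r was 0.95 (rho 0.95). With that of the mTORC1 pathway list r was -0.61 (rho -0.66), between -0.91 and -0.47 within groups. These measures share the libraries and the total of reads, and no p is given. No-feature reads made up 19.3% ± 1.4 in alcohol CNO, 18.6% ± 1.3 in alcohol vehicle, 18.1% ± 1.4 in water CNO and 18.6% ± 2.1 (SD) in water vehicle libraries. With that share as a covariate the member median for alcohol averaged over treatments was -0.03 in place of -0.06, and 48 of 58 members were lower. The part of these measures in the group differences was otherwise not tested.

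**Figure D4:**
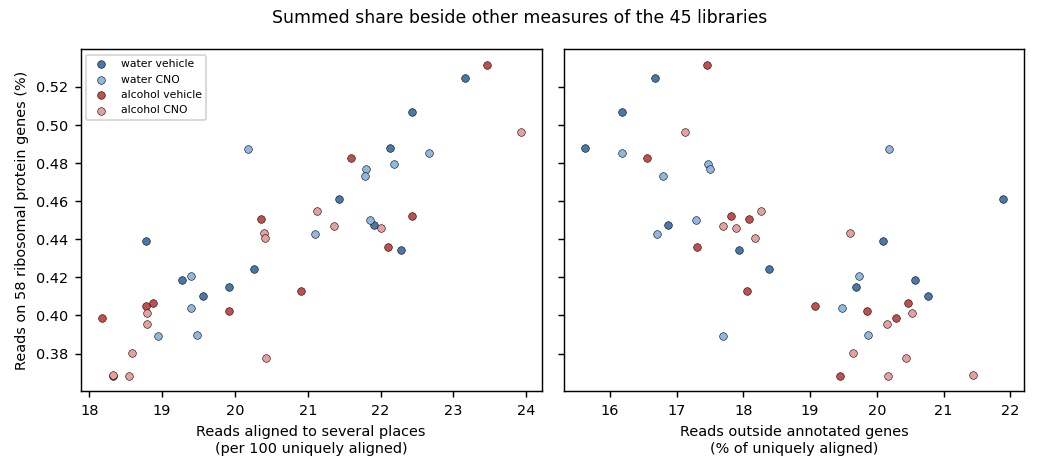
Reads on the 58 members as a percent of assigned reads (y axis) against reads aligned to several places per 100 uniquely aligned reads (left) and no-feature reads (labelled as outside annotated genes) as a percent of uniquely aligned reads (right), 1 point per library, coloured by group. The share was higher in libraries with more of the first (r = 0.85) and lower in those with more of the second (r = -0.67), in all 4 groups.

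Markers of other cells differed between the same groups. With alcohol averaged over treatments 12 of 12 microglia markers were higher (median 0.14) and 8 of 8 ependymal markers lower (median -0.36), none of them past the threshold. Of 12 lymphocyte markers the 6 tested were all higher (median 0.86), as were 10 of 10 astrocyte markers (median 0.04), and 9 of 12 cortical markers were lower (median -0.21). With CNO averaged over fluids 12 of 12 microglia markers (median -0.25) and 8 of 8 ependymal markers (median -0.36) were lower, none past the threshold. The 6 lymphocyte markers tested were lower too (median -1.03, 1 past the threshold), 11 of 12 cortical markers were higher (median 0.14), and 14 of 14 interferon-induced genes fell (adjusted p under 0.05 by edgeR, median -1.90). The summed interferon-induced level ranged from 56.6 to 630 CPM in water vehicle, 47.5 to 99.6 in water CNO, 69.4 to 766 in alcohol vehicle and 38.6 to 177 CPM in alcohol CNO libraries, with r = 0.26 (rho 0.07) to the summed share, or -0.06 without 2 libraries. The summed microglia level ranged from 576 to 985 CPM in water vehicle, 481 to 707 in water CNO, 585 to 2108 in alcohol vehicle and 507 to 824 CPM in alcohol CNO libraries, with r = 0.46 (rho 0.39) to the summed share, or 0.30 without 2 libraries. The summed ependymal level ranged from 8.62 to 28.4 CPM in water vehicle, 10.4 to 29.1 in water CNO, 8.01 to 28.4 in alcohol vehicle and 7.96 to 19.6 CPM in alcohol CNO libraries. The summed lymphocyte level ranged from 6.52 to 64.4 CPM in water vehicle, 4.65 to 75.0 in water CNO, 6.76 to 673 in alcohol vehicle and 5.13 to 58.1 CPM in alcohol CNO libraries, with r = 0.36 (rho 0.02) to the summed share, or -0.06 without 2 libraries. The summed astrocyte level lay between 3782 and 5414 CPM and the summed cortical level between 268 and 1114 CPM, with overlap of all 4 groups. To the summed share, the astrocyte level had r = 0.47 (rho 0.45), the cortical level 0.23 (rho 0.23) and the summed endothelial level -0.48 (rho -0.50). Every listed microglia and ependymal marker passed the filter on low counts. Their part in the result was not tested, and in tissue, fewer cells of a type and less RNA per cell cannot be told apart.

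Most members moved together from mouse to mouse. The correlation of a member's log2 CPM with the mean of the other 57 over 45 libraries had a median Pearson r of 0.75 and was above 0.5 in 44 members. It was highest in Rpl32 (r = 0.90, rho = 0.90), Rps9 (r = 0.90, rho = 0.88) and Rpl8 (r = 0.90, rho = 0.89), all core proteins of their subunits. Rpl8, an example of this behaviour, ran from 285 through 304 to 375 CPM in water vehicle, from 276 through 301 to 346 in water CNO, from 276 through 295 to 349 in alcohol vehicle and from 258 through 293 to 334 CPM in alcohol CNO mice. Taking out group means changed r little, to 0.89 for Rpl8. Without the 5 members described next, the mean of the large-subunit and the mean of the small-subunit members had an r of 0.96.

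The genes outside the members most like their mean were Mir682 (r = 0.91), Gnb2l1 (r = 0.90), Eef1b2 (r = 0.89), Gpx1 (r = 0.87) and Eif3h (r = 0.86). Gnb2l1 encodes a ribosome-bound scaffold, Eef1b2 the exchange factor of the elongation factor that brings tRNA to the ribosome, Gpx1 a glutathione peroxidase and Eif3h a subunit of an initiation factor. The gene at the top is annotated as a miRNA hairpin, at chr13:75645046-75645141 (RefSeq, GRCm38.p6, plus strand), and stood at 38.1 CPM ± 4.2 (SD, n = 45). Its 96 bases were set against the coding transcript of Rpl37a, which is on chromosome 1 (GENCODE vM21), and matched bases 182 to 277 of it, all within the coding sequence, with 1 difference. The pair is shown because a read within this stretch can differ between them by at most 1 base; capitals mark the differing base.
Mir682 hairpin: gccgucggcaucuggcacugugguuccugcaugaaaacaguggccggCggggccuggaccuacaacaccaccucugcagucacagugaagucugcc
Rpl37a transcript: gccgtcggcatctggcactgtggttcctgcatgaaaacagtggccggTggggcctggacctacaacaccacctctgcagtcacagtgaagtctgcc
The mature miRNA, with its seed (bases 2 to 8) in capitals, lies inside the same stretch.
miR-682 mature: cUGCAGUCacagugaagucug
Mir682 and Rpl37a had an r of 0.84 over the 45 libraries. Transcripts of 15 annotated genes hold the first or the last 24 bases of the hairpin. The count of Mir682 is therefore uncertain as a measure of that miRNA, and so is that of Rpl37a.

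The members that moved least with the others were Rpl10a (r = -0.27, rho = -0.29), Rpl35a (r = -0.25, rho = 0.02), Rpl3 (r = -0.05, rho = 0.07), Rps2 (r = 0.05, rho = 0.22) and Rplp0 (r = 0.10, rho = 0.19). In 5 members, of which Rpl3, Rps2, Rpsa and Rpl35a are described here, the libraries fell into separate ranges, counted where neighbouring libraries differed by more than 0.4 in log2 CPM with at least 2 libraries on each side; this rule was chosen after the values were seen. In the other 53 members the highest library was a median of 1.59 times the lowest and at most 3.03 times, in Rps4l.

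Rpl3, a large-subunit protein at the peptidyl transferase centre, was between 1.95 and 4.73 CPM in 20 libraries, between 25.2 and 35.1 CPM in 22 and between 58.5 and 64.6 CPM in 3. The low range held 7 of 12 alcohol CNO, 4 of 11 alcohol vehicle, 5 of 11 water CNO and 4 of 11 water vehicle libraries. Every group thus held both low and middle libraries, and no group was separate from another. The group medians followed which range held most libraries: 4.25 CPM in alcohol CNO, 27.5 in alcohol vehicle, 26.3 in water CNO and 31.5 CPM in water vehicle mice. The log2 fold change for CNO in alcohol drinkers was -0.87 ± 0.63 (adjusted p = 0.980 by edgeR).

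Rps2, a small-subunit protein near the entry of the message, was between 1.63 and 3.01 CPM in 13 libraries and between 15.8 and 48.9 CPM in 32. Its low libraries numbered 3 in alcohol CNO, 3 in alcohol vehicle, 5 in water CNO and 2 in water vehicle mice, and the log2 fold change for CNO in water drinkers was -0.78 ± 0.54 (adjusted p = 0.864 by edgeR). Rpsa, the small-subunit protein also known as the laminin receptor, was between 13.0 and 14.5 CPM in 5 libraries and between 35.9 and 85.6 CPM in 40, the low ones numbering 1, 1, 1 and 2 in the same order of groups. Rpl35a, a large-subunit protein mutated in some patients with Diamond-Blackfan anaemia, was between 2.24 and 2.75 CPM in 3 libraries and between 4.77 and 11.6 CPM in 42; of its low libraries 2 were alcohol CNO and 1 water CNO. Each of these genes thus had low libraries in at least 2 groups. Among ribosomal proteins outside the pattern, Rps3a1 also spread widely, from 1.89 to 68.2 CPM.

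**Figure D5:**
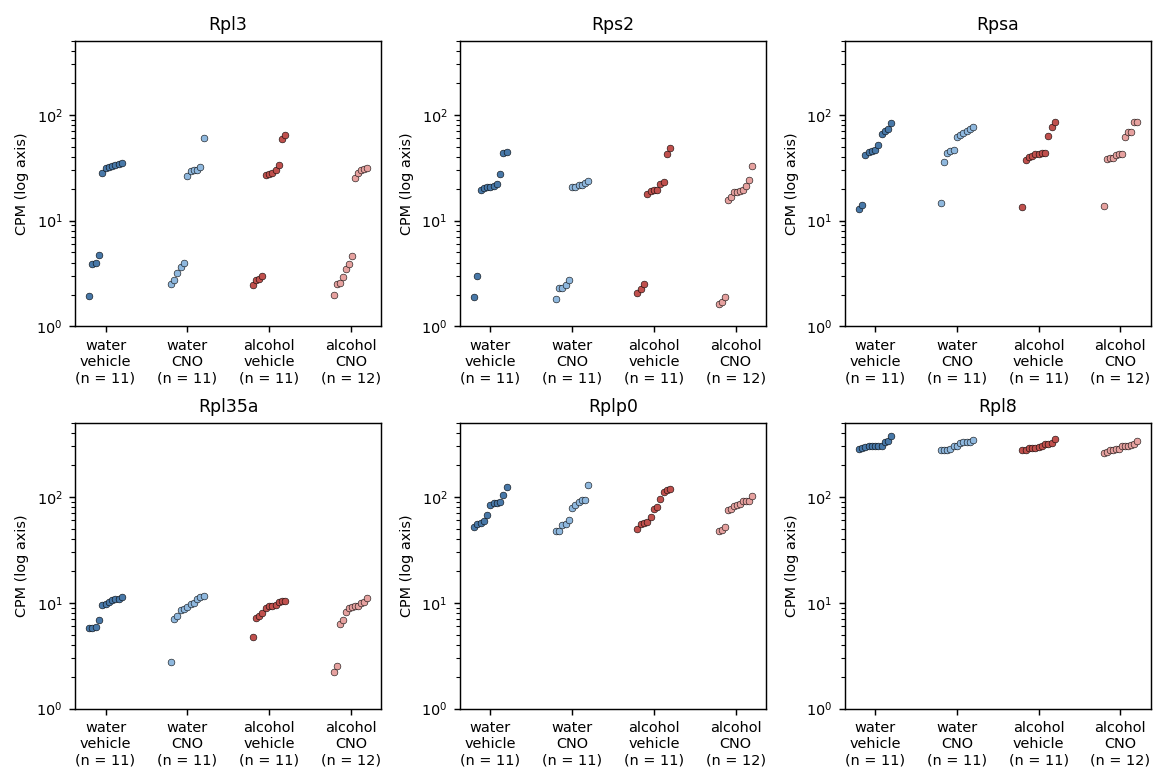
CPM after TMM scaling (y axis, log scale), 1 point per library ordered by value within each of 4 groups, for 4 members with separate ranges, for Rplp0 and for Rpl8. Rpl3 forms 3 bands, and Rps2, Rpsa and Rpl35a each have a separate low band, while Rplp0 spreads from 47.5 to 129 CPM without such a gap and Rpl8 stays between 258 and 375 CPM.

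Many of the genes most like these members lay close to them on the chromosome. Of the 10 genes with the highest absolute correlation with each over 45 libraries, out of 13566, 6 lay within 10 Mb on the same chromosome for Rpl3 (chromosome 15), 4 for Rpsa (9), 3 for Rpl35a (16) and 2 for Rps2 (17). Such a window held a median of 0.973% of the genes over all 58 members. It held 1.84% for Rpl3, 0.818% for Rpsa, 0.767% for Rpl35a, 2.10% for Rps2, 1.64% for Rplp0 and 1.19% for Rplp1. Of the 53 members without separate ranges 47 had none, and Rplp0 (chromosome 5), whose libraries spread from 47.5 to 129 CPM without such a gap, had 8 and Rplp1 had 3. Rpl3 and Card10, 1.30 Mb away, had an r of -0.72, and Card10 encodes a CARD-domain scaffold. Rpsa and the member Rpl14, 0.444 Mb away on chromosome 9, had an r of 0.81. Rplp0 ranged from 47.5 to 101 CPM in alcohol CNO, 49.7 to 119 in alcohol vehicle, 47.6 to 129 in water CNO and 52.1 to 123 CPM in water vehicle mice, which overlapped. Rplp0 and Rab35, a small GTPase gene 0.0724 Mb away, had an r of 0.55. These points share the libraries and are a description. The 5 members with separate ranges shared a median of 71.3% of their 50-base windows with another gene, beside 39.0% in the other 53 members. The share was 85.6% in Rpl3, 71.3% in Rps2, 51.3% in Rpl35a and 44.0% in Rpsa. The part of shared sequence in the ranges was not tested.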

How the data were processed

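Per the submitters' processing notes, reads were handled with FastQC, STAR and HTSeq 0.9.1 on GRCm38 (mm10); the annotation, strand setting and read length: not given in the sources used here. The deposited files hold raw counts per gene symbol, made by the authors, 1 file per library; HTSeq's 5 summary rows were kept out of library sizes and tests. Each library is a different mouse. No 2 libraries of a group agreed within sampling noise: over 231 pairs the chi-square per degree of freedom was 6.45 to 75.2.

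Genes were filtered with filterByExpr, scaled by TMM and fitted over all 45 libraries with edgeR 4.0.16 (R 4.3.3, robust glmQLFit, 1 coefficient per group, no covariate). Standard errors are the fold change over the square root of F. Levels in group ranges are CPM after TMM; log2 CPM used a prior count of 2. CPM per kilobase and the member minimum used CPM without TMM and 1 GENCODE vM21 transcript per gene. Every adjusted p is from edgeR. Alternatives changed the scaling, the filter, covariates, libraries or tool (DESeq2 1.42.0, limma 3.58.1). The code was tested on simulated data. Named genes were the members with the smallest p in each comparison and direction, the ends of the level (3 and 3) and correlation (3 and 5) orders, suffix l or l1 members with their namesakes, Rpsa, Rplp0, Rplp1 and Rplp2, the 5 other genes most like the member mean, candidates under the minimum, and ribosomal proteins the pattern misses; others were named after their values were seen. The members and lists were chosen with earlier results of these data known. Intervals cover counting error only. Ranges and neighbours were computed with Python 3.11.15, numpy 2.4.6 and scipy 1.17.1. Values of 5 members, and of some other genes, are not reported here by name; they are part of the counts, medians and sums.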

Additional observations from a re-analysis of the deposited data

How the results depend on the processing

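No paired analysis was possible because each library is a different mouse and replicate numbers were given in accession order. In all 7 comparisons 0 members were called under 12 or 13 other settings (scaling, filter, covariates, 3 libraries left out, tool, thinning), at an adjusted p under 0.1, and with each of the 45 libraries left out (range 0 to 0). The member median for alcohol averaged over treatments lay between -0.09 and -0.03, and between -0.08 and -0.05 with each library left out. For alcohol under vehicle it lay between -0.11, without the 3 libraries, and -0.05 and for alcohol under CNO between -0.08 and -0.00, always below 0. For CNO in alcohol drinkers the median of -0.04 became 0.00 with the no-feature share as a covariate. It became 0.01 without replicates 5 and 10 of alcohol vehicle, and 0.01 without those and replicate 9 of water vehicle. The interaction median of -0.02 became 0.05, 0.03 and 0.04 under the same settings, 0.01 with S-number block as a covariate and 0.01 without alcohol vehicle replicate 5 alone; the cause was not tested. Over all genes, the no-feature share as a covariate moved the calls for alcohol averaged over treatments from 0 to 98. It moved those for CNO in alcohol drinkers from 138 to 19. Block as a covariate moved them to 4 and 0. The median for CNO in water drinkers lay between -0.06 and -0.01 and that for CNO averaged over fluids between -0.05 and -0.01. The counts of members at an unadjusted p were recomputed under these settings after the data were seen. The ratio of the summed share, alcohol over water, lay between 0.925 and 0.955, and CNO over vehicle between 0.970 and 0.993. A pyrimidine run was present in 53.5% of members with a window of 5 bases around the start, 23.3% at the start base alone, where fewer positions are searched, and 65.1% with 10 bases. A denominator without mitochondrially encoded genes was not run, since the files list no gene with the prefix mt-.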
